A study of Mus musculus with 4 samples.

Results

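Neutrophils are short-lived white blood cells that are made in the bone marrow and carry their proteins to tissue in granules. Primary granules are filled first, at the promyelocyte stage, secondary granules follow at the myelocyte stage, and tertiary granules, chemokine receptors and other surface receptors come as the cell matures. 4T1, a mouse triple-negative breast cancer line, is known for secreting factors that expand granulocytes, which then collect in the lung and other organs of the host. The 32 genes described here encode primary, secondary and tertiary granule proteins, cytosolic and antimicrobial proteins of mature neutrophils, and their receptors. They were chosen by symbol for these roles, and all 32 were found among the 56748 genes of the count table.

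RNA came from lungs of female BALB/cJ mice, 7 weeks old when 4T1-FLuc cells, 4T1 cells with a firefly luciferase, were injected into the tail vein. The 2 control libraries are labelled saline in their titles, with a PBS control as treatment. The 2 libraries labelled cmLumi-Olap came from mice given cmLumiOpto/PARPi, with 3 weeks of treatment by the design text of the series. The vector, carried by CD276 antibody-tagged exosomes, encodes Nanoluciferase and a light-gated channel in the mitochondrial membrane. With it the mice received ViviRen (2 mg/kg), the substrate of Nanoluciferase, and olaparib (50 mg/kg), an inhibitor of PARP. The labels describe tumour cells harvested from the lungs, while the methods of the study describe dissociated lung tissue with metastases.

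The labels name 4T1 as the cell line, but the counts held genes of many cell types. The 10 airway markers summed to 1157 and 84.1 CPM (the count scaled to the TMM-adjusted library total) in saline 1 and 2, and to 5712 and 3248 CPM in cmLumiOpto/PARPi 1 and 2. The 8 alveolar type 2 markers summed to 458 to 8798 CPM, the 8 markers of 4T1 epithelial cells to 2488 to 3712 CPM and the 7 pan-leukocyte genes to 638 to 1135 CPM. Library totals ran from 15263375 to 16755228 counts. Each library is a mixture, so that fewer cells of a type and less RNA per cell cannot be told apart in any value given here. The labels do not say whether the 2 libraries of a group are separate mice, and p-values measure the spread between these libraries.

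Each group held a library with more and a library with less RNA of the neutrophil genes. Together they took 0.279% of the counts in saline 1 (95% Wilson interval 0.277% to 0.282%) and 0.189% in saline 2 (0.187% to 0.191%). In cmLumiOpto/PARPi 1 they took 0.202% (0.200% to 0.204%) and in cmLumiOpto/PARPi 2 0.315% (0.313% to 0.318%). These intervals cover counting error only. The high libraries were thus saline 1 and cmLumiOpto/PARPi 2. Lcn2 and Padi4, which had other library orders, held 8299 and 5961 of the 44919 counts of the set in saline 1. In saline 2 they held 5895 and 8077 of 28820. Of the 32 genes, 19 were highest in cmLumiOpto/PARPi 2, where 19.8% of all tested genes were highest, and 0 were lowest there. The lowest library was saline 2 for 18 genes and cmLumiOpto/PARPi 1 for 13. Of all tested genes 29.9% were lowest in saline 2, 30.3% in cmLumiOpto/PARPi 1 and 18.8% in cmLumiOpto/PARPi 2.

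**Figure D1:**
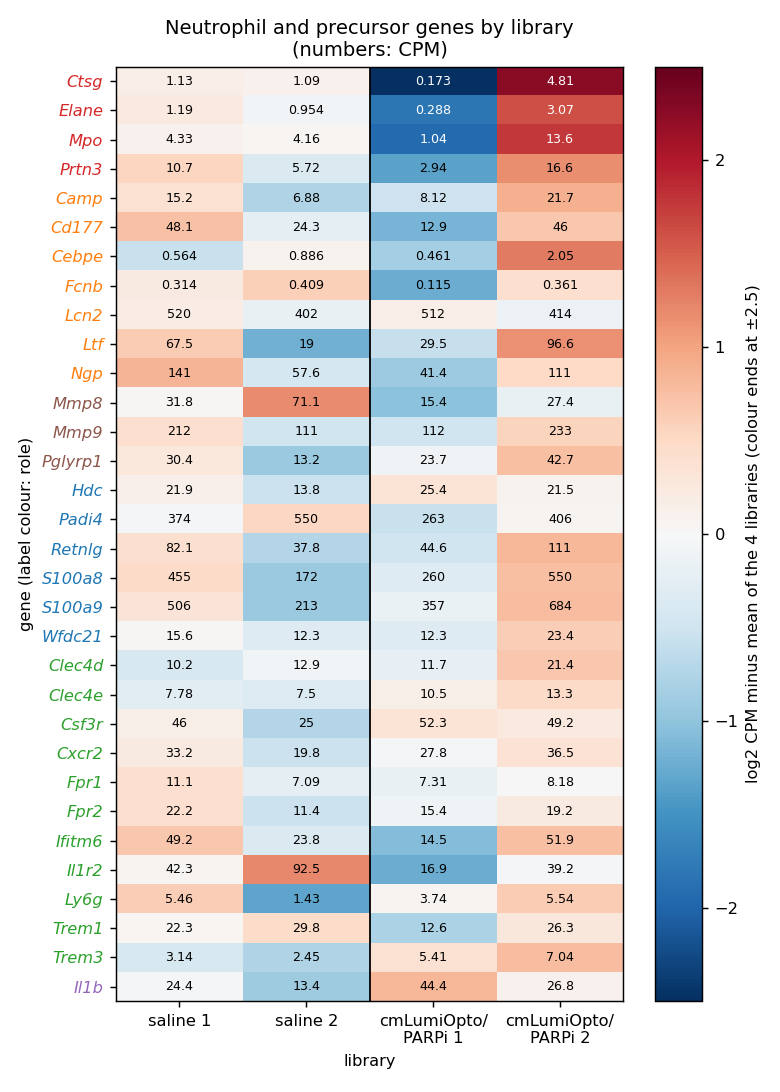
CPM of each of the 32 genes in the 4 libraries (numbers), coloured by log2 CPM minus the gene's mean over the libraries, with gene labels coloured by role and a line between the groups. Most rows are red in cmLumiOpto/PARPi 2 and blue in saline 2 or cmLumiOpto/PARPi 1, while Mmp8 and Il1r2 are reddest in saline 2.

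Of the 32 genes 31 passed the filter on low counts and were tested. Among these 31, 25 had a higher level in saline 1 than in saline 2, which was so for 49.4% of all 15167 tested genes, and 27 had a higher level in cmLumiOpto/PARPi 2 than in cmLumiOpto/PARPi 1, against 49.8% of all. In 21 genes both held, against 19.3% of all. The saline libraries differed by 2-fold or more in 11 of the 31 genes, or 35.5%, against 10.2% of all tested genes. The cmLumiOpto/PARPi libraries differed by 2-fold or more in 15, or 48.4%, against 10.8%. The genes share their libraries and are no replicates, so these counts are descriptions.

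**Figure D2:**
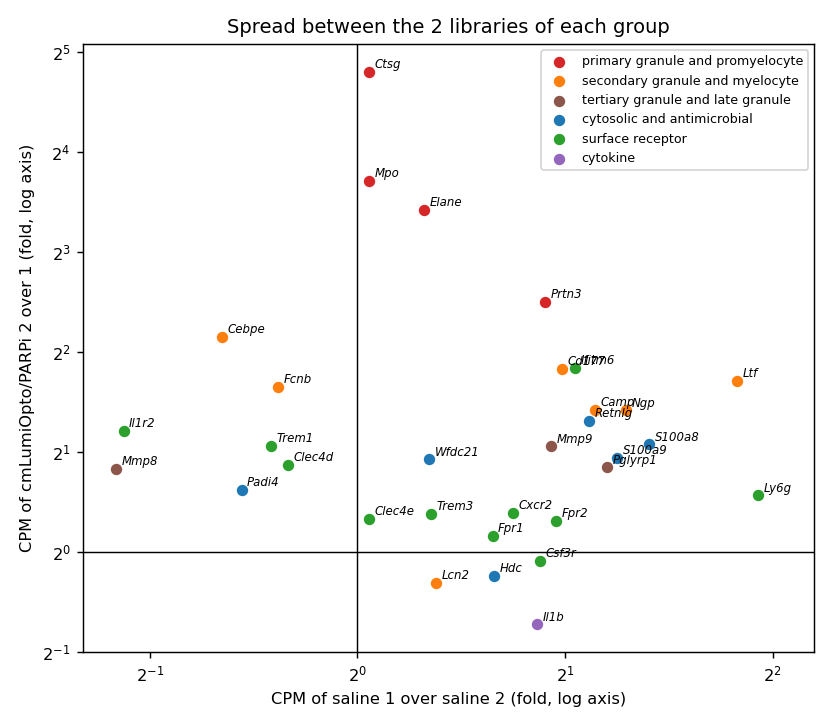
Fold between the libraries of each group for the 32 genes, saline 1 over saline 2 on the horizontal and cmLumiOpto/PARPi 2 over 1 on the vertical log axis, coloured by role. Most genes lie above 1 on both axes, and the primary granule genes Ctsg, Mpo, Elane and Prtn3 lie highest, between 5.66-fold and 27.9-fold.

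No neutrophil gene passed an adjusted p of 0.05 between the groups in edgeR's quasi-likelihood test, and 0% of all tested genes did. DESeq2 called 1 of the 31 and 1011 of all genes, and edgeR's likelihood ratio test 0 of the 31 and 865 of all. At an unadjusted p under 0.05 there were Trem3, Il1b, Clec4e, Mmp8 and Il1r2, 5 of the 31, or 16.1%, against 21.2% of all tested genes, so that the neutrophil genes were not above the background. In 4 genes both cmLumiOpto/PARPi libraries lay above both saline libraries, 12.9% of the 31 against 27.4% of all. In 2 genes both lay below, 6.45% against 27.8%. The groups overlapped in the other 25. By the roles assigned here the median log2 fold change was 0.71 for primary granules and 0.22 for secondary granules. It was 0.10 for the 3 genes grouped as tertiary and late granule, with Pglyrp1 at 0.60, Mmp9 at 0.10 and Mmp8 at -1.27. The median was 0.37 for cytosolic and antimicrobial proteins and 0.28 for surface receptors. The fitted log2 fold change (cmLumiOpto/PARPi over saline) was above 0 in 23 genes and below 0 in 8, with a median of 0.37 beside 0.02 over all tested genes. That median was -0.45 without cmLumiOpto/PARPi replicate 2, -0.09 without saline replicate 2, 0.69 without saline replicate 1 and 0.68 without cmLumiOpto/PARPi replicate 1, so its sign depended on a single library in each group. With 2 libraries against 2, an exact two-sided permutation test of a single value cannot give a p below 0.333.

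**Figure D3:**
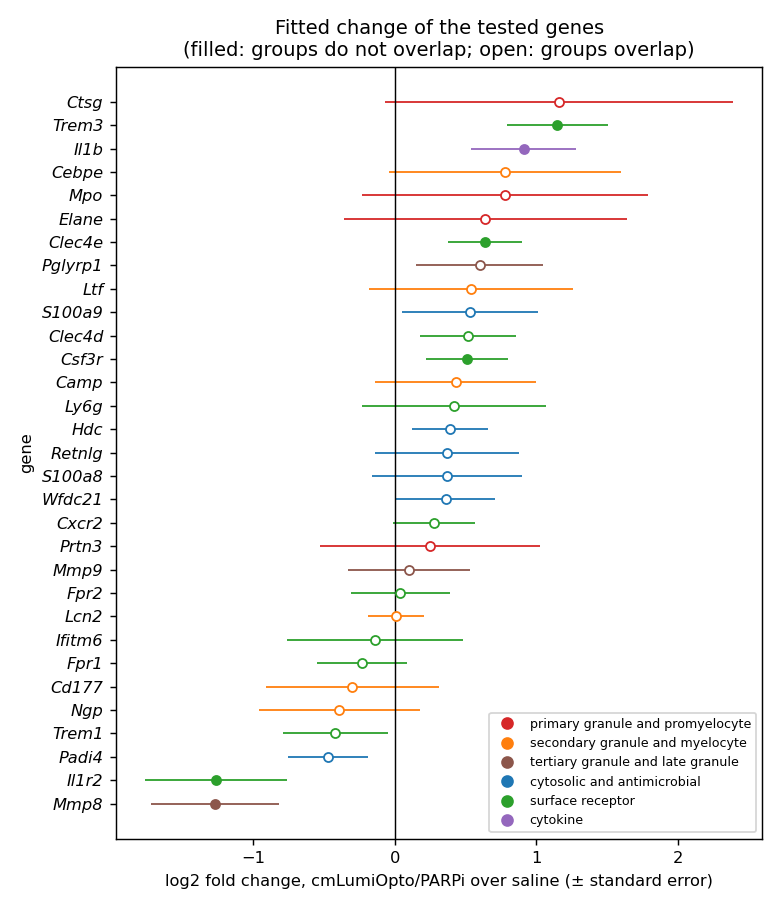
Fitted log2 fold change (cmLumiOpto/PARPi over saline) of the 31 tested genes with its standard error, coloured by role. Filled points mark Trem3, Il1b, Clec4e and Csf3r (higher) and Il1r2 and Mmp8 (lower), the genes whose groups did not overlap, and no gene passed the adjusted threshold.

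The levels of the genes spanned several orders of magnitude. Per kilobase of gene length, averaged over the 4 libraries, S100a9 was highest at 843 CPM per kb, then S100a8 at 518, Lcn2 at 176, Retnlg at 116 and Padi4 at 82.4. The primary granule genes were near the bottom, with Prtn3 at 5.19 CPM per kb, Ctsg at 1.74, Mpo at 1.69 and Elane at 1.40. Among the cytosolic and antimicrobial genes Hdc, at 3.23 CPM per kb, was below Prtn3, and the other 5 were above all 4 primary granule genes. Cebpe at 0.797 and Fcnb at 0.224 CPM per kb were lowest. Many neighbours in this order overlapped in their range over libraries, among them S100a9 and S100a8.

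**Figure D4:**
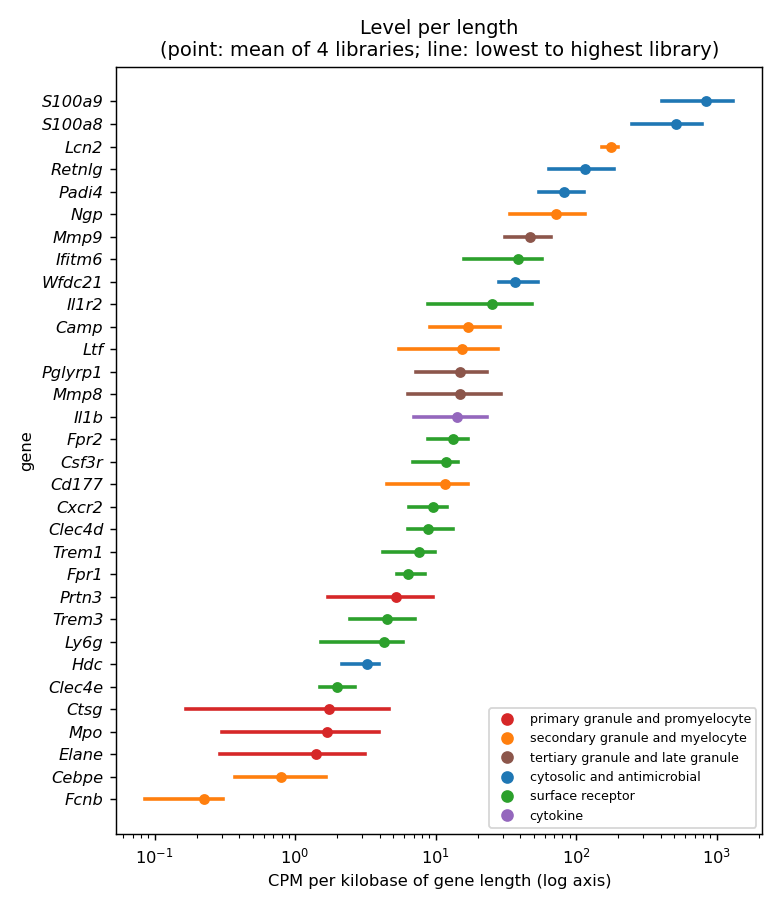
Level of each gene per kilobase of gene length on a log axis, with the mean of the 4 libraries as a point and the lowest to highest library as a line, coloured by role. S100a9 and S100a8 stand at the top, the primary granule genes Prtn3, Ctsg, Mpo and Elane lie near the bottom, and their lines are the longest.

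Primary granule genes varied most between the cmLumiOpto/PARPi libraries. Mpo encodes myeloperoxidase, which makes hypochlorous acid, and lies on chromosome 11 from 87684407 to 87695239 (mm39). It had 69 and 61 counts in saline 1 and 2, and 18 and 226 counts in cmLumiOpto/PARPi 1 and 2. These are 4.33 and 4.16 CPM in the saline libraries, against 1.04 and 13.6 CPM in the cmLumiOpto/PARPi libraries. The saline libraries were alike and lay between the cmLumiOpto/PARPi libraries, which differed 13.1-fold (95% counting interval 8.12 to 22.5). The group means were 4.24 ± 0.121 CPM (SD, n = 2) for saline and 7.32 ± 8.88 CPM (SD, n = 2) for cmLumiOpto/PARPi, a log2 fold change of 0.78 ± 1.01 (SE), with an edgeR adjusted p of 0.685.

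Elane, the gene of neutrophil elastase, had 19 and 14 counts in the saline libraries, against 5 and 51 in cmLumiOpto/PARPi 1 and 2. Ctsg, which encodes the protease cathepsin G, had 18 and 16 counts in the saline libraries, against 3 and 80 in cmLumiOpto/PARPi 1 and 2. Both genes followed the order of Mpo, with cmLumiOpto/PARPi 1 lowest and cmLumiOpto/PARPi 2 highest. The fold between those libraries was 10.7 for Elane (counting interval 4.28 to 34.2) and 27.9 for Ctsg (9.20 to 138). Prtn3, the gene of proteinase 3, had 171, 84, 51 and 276 counts in the same order of libraries, and its cmLumiOpto/PARPi libraries differed 5.66-fold. Prtn3 overlaps Plppr3 on the other strand, a gene with 59 to 151 counts, and the strand setting of the counting is not given in the sources used here, so the level of Prtn3 is uncertain. Over the 4 genes the summed level was 17.4 and 11.9 CPM in the saline libraries, against 4.43 and 38.1 CPM in the cmLumiOpto/PARPi libraries. Their adjusted p-values between the groups ran from 0.617 to 0.880.

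Genes of the secondary granules differed less between the cmLumiOpto/PARPi libraries than those of the primary granules, with a median of 2.97-fold over the 6 tested against 11.9-fold over the 4, and more between the saline libraries, with 2.10-fold against 1.14-fold. Ltf encodes lactoferrin, the iron-binding protein of these granules, and lies on chromosome 9 from 110848339 to 110871835 (mm39). It had 67.5 and 19.0 CPM in saline 1 and 2, and 29.5 and 96.6 CPM in cmLumiOpto/PARPi 1 and 2. The saline libraries differed 3.55-fold (counting interval 3.11 to 4.06) and the cmLumiOpto/PARPi libraries 3.27-fold (2.96 to 3.62). Between the groups the log2 fold change was 0.54 ± 0.72 (SE), with an edgeR adjusted p of 0.696.

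Camp, the gene of the antimicrobial cathelicidin, had 15.2 and 6.88 CPM in the saline libraries, against 8.12 and 21.7 CPM in the cmLumiOpto/PARPi libraries. Ngp, which encodes neutrophilic granule protein, a relative of the cathelicidin, had 141 and 57.6 CPM and 41.4 and 111 CPM in the same order. Cd177, a surface glycoprotein that is also stored in secondary granules, had 48.1 and 24.3 CPM and 12.9 and 46.0 CPM. All 3 genes were high in saline 1 and cmLumiOpto/PARPi 2, and the groups overlapped in each. Their log2 fold changes were 0.43 for Camp, -0.39 for Ngp and -0.30 for Cd177, with adjusted p-values of 0.693 to 0.805.

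Lcn2, lipocalin 2, which binds bacterial siderophores and is also made by epithelial and tumour cells, went another way. It had 520 and 402 CPM in the saline libraries, against 512 and 414 CPM in the cmLumiOpto/PARPi libraries. Its highest and lowest library differed by a smaller fold than those of any other of the 32 genes. The log2 fold change was 0.01 ± 0.20 (SE), with an edgeR adjusted p of 0.989. Cebpe, the transcription factor needed for secondary granules, had 9 and 13 counts in the saline libraries, against 8 and 34 in the cmLumiOpto/PARPi libraries. Fcnb, ficolin B of the early granules, had 5, 6, 2 and 6 counts and was too low to test.

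Of the genes grouped here as tertiary and late granule, Mmp9 and Pglyrp1 followed the same libraries and Mmp8 did not. Mmp9 encodes gelatinase B, the marker protease of tertiary granules. It had 212 and 111 CPM in the saline libraries, against 112 and 233 CPM in the cmLumiOpto/PARPi libraries, with a log2 fold change of 0.10 ± 0.43 (SE). Pglyrp1, a peptidoglycan recognition protein, had 30.4 and 13.2 CPM and 23.7 and 42.7 CPM. Mmp8, neutrophil collagenase, lies on chromosome 9 from 7558457 to 7568486 (mm39). It had 31.8 and 71.1 CPM in the saline libraries, against 15.4 and 27.4 CPM in the cmLumiOpto/PARPi libraries. Saline 2, the library in which most neutrophil genes were lowest, held the highest level of Mmp8, and both cmLumiOpto/PARPi libraries lay below both saline libraries. The group means were 51.5 ± 27.8 CPM (SD, n = 2) and 21.4 ± 8.53 CPM (SD, n = 2), a log2 fold change of -1.27 ± 0.45 (SE), with an edgeR adjusted p of 0.201. Its adjusted p was 0.0484 with DESeq2 and 0.0887 with edgeR's likelihood ratio test. It was 5.10e-07 in the edgeR quasi-likelihood test without the filter on low counts, a setting that called 2000 of all genes.

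The cytosolic proteins S100a8 and S100a9 form calprotectin, which binds calcium and zinc and is the most abundant protein pair of the neutrophil cytosol. S100a9 lies on chromosome 3 from 90599939 to 90603028 (mm39), and S100a8 beside it from 90576285 to 90577342. S100a9 had 506 and 213 CPM in saline 1 and 2, and 357 and 684 CPM in cmLumiOpto/PARPi 1 and 2. S100a8 had 455 and 172 CPM in the saline libraries, against 260 and 550 CPM in the cmLumiOpto/PARPi libraries. The pair kept the same order of libraries, with cmLumiOpto/PARPi 2 highest, saline 1 next and saline 2 lowest. The log2 fold change was 0.53 ± 0.48 (SE) for S100a9, with an edgeR adjusted p of 0.547. It was 0.37 ± 0.53 (SE) for S100a8, with an adjusted p of 0.720.

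Retnlg, a resistin-like protein of mature neutrophils, had 82.1 and 37.8 CPM in the saline libraries, against 44.6 and 111 CPM in the cmLumiOpto/PARPi libraries. Wfdc21, a secreted protein of the whey acidic protein family, had 15.6 and 12.3 CPM and 12.3 and 23.4 CPM. Both shared the order of calprotectin. Hdc, which makes histamine and is also expressed by basophils and mast cells, had 21.9 and 13.8 CPM and 25.4 and 21.5 CPM. The 13 mast cell and basophil markers summed to 46.8 and 36.7 CPM in the saline libraries, against 71.0 and 41.7 CPM in the cmLumiOpto/PARPi libraries, with the same order of libraries as Hdc. Kit and Gata2, which other cells express too, had the most counts of the list, Mcpt4, Prss34, Ms4a2, Cma1 and Fcer1a were at 0 in at least 1 library, and the part of these cells in the level of Hdc was not tested.

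Padi4, the enzyme that citrullinates histones when neutrophils release chromatin traps, had another order of libraries. It lies on chromosome 4 from 140473176 to 140501547 (mm39). It had 374 and 550 CPM in the saline libraries, against 263 and 406 CPM in the cmLumiOpto/PARPi libraries, and was highest in saline 2. Mmp8, Il1r2 and Trem1 were highest in saline 2 too. The log2 fold change was -0.47 ± 0.28 (SE), with an edgeR adjusted p of 0.380. The 8 markers of 4T1 epithelial cells summed to 2854 and 3318 CPM in saline 1 and 2 and to 2488 and 3712 CPM in cmLumiOpto/PARPi 1 and 2, though 4 of the 7 tested were higher in saline 1 than in saline 2. Whether Padi4 RNA came from cells other than neutrophils was not tested.

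Surface receptors fell into several orders. Ly6g, the antigen by which mouse neutrophils are sorted, had 87 and 21 counts in the saline libraries, against 65 and 92 counts in the cmLumiOpto/PARPi libraries. Cxcr2, the receptor for the chemokines that draw neutrophils to tissue, had 33.2 and 19.8 CPM and 27.8 and 36.5 CPM. Ifitm6, an interferon-induced membrane protein gene, had 49.2 and 23.8 CPM and 14.5 and 51.9 CPM. In all 3 genes saline 1 and cmLumiOpto/PARPi 2 were the highest libraries and the groups overlapped. The formyl peptide receptors Fpr1 and Fpr2, which sense bacterial and mitochondrial peptides, were highest in saline 1, with 11.1 CPM for Fpr1 and 22.2 CPM for Fpr2. Their log2 fold changes were -0.23 and 0.04. Fpr1 and Fpr2 belong to a multigene family, so reads could be split between relatives, and 6 of the 32 genes, among them Fpr2, overlap another gene of the table.

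Csf3r, Trem3 and Clec4e were higher in both cmLumiOpto/PARPi libraries than in both saline libraries. Csf3r encodes the receptor of G-CSF, the main growth factor of granulocytes. It had 733 and 367 counts in the saline libraries, against 908 and 817 counts in the cmLumiOpto/PARPi libraries, a log2 fold change of 0.51 ± 0.29 (SE), with an edgeR adjusted p of 0.354. Trem3, an activating receptor of myeloid cells, had 50 and 36 counts in the saline libraries, against 94 and 117 counts in the cmLumiOpto/PARPi libraries. The group means of Trem3 were 2.79 ± 0.483 CPM (SD, n = 2) and 6.23 ± 1.15 CPM (SD, n = 2), a log2 fold change of 1.15 ± 0.36 (SE), with an edgeR adjusted p of 0.176. Clec4e, a lectin that senses mycobacterial glycolipids and dead cells, had 7.78 and 7.50 CPM and 10.5 and 13.3 CPM, a log2 fold change of 0.64 ± 0.26 (SE), with an edgeR adjusted p of 0.233. For Trem3 and Clec4e the libraries of a group differed by at most 1.30-fold, and monocytes and macrophages express both genes too. Their neighbour in function, Clec4d, had 10.2 and 12.9 CPM and 11.7 and 21.4 CPM, with overlapping groups.

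Il1r2 and Trem1 were high in saline 2, as Mmp8 and Padi4 were. Il1r2 encodes the decoy receptor that takes up interleukin-1 without a signal, and lies on chromosome 1 from 40113239 to 40164391 (mm39). It had 42.3 and 92.5 CPM in the saline libraries, against 16.9 and 39.2 CPM in the cmLumiOpto/PARPi libraries. The groups did not overlap, though saline 1 and cmLumiOpto/PARPi 2 lay close together. The group means were 67.4 ± 35.5 CPM (SD, n = 2) and 28.1 ± 15.8 CPM (SD, n = 2), a log2 fold change of -1.26 ± 0.50 (SE), with an edgeR adjusted p of 0.232. Trem1, an amplifier of inflammatory signals, had 22.3 and 29.8 CPM and 12.6 and 26.3 CPM, a log2 fold change of -0.42 ± 0.37 (SE).

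The cytokine gene of the set, Il1b, went opposite to its decoy receptor. Il1b encodes interleukin-1 beta, which neutrophils and macrophages make, and lies on chromosome 2 from 129206490 to 129213059 (mm39). It had 24.4 and 13.4 CPM in the saline libraries, against 44.4 and 26.8 CPM in the cmLumiOpto/PARPi libraries, with the highest level in cmLumiOpto/PARPi 1, the library with the fewest primary granule transcripts. The group means were 18.9 ± 7.76 CPM (SD, n = 2) and 35.6 ± 12.4 CPM (SD, n = 2), a log2 fold change of 0.91 ± 0.37 (SE), with an edgeR adjusted p of 0.233. The margin between the groups, from 24.4 CPM in saline 1 to 26.8 CPM in cmLumiOpto/PARPi 2, was smaller than the difference between the libraries of either group. Without the filter on low counts the adjusted p was 0.00311 for Il1b and 8.97e-08 for Il1r2.

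Genes that share a library order can be set beside the sequence upstream of their start sites. Of the 32 genes 28 had an entry in the RefSeq promoter table (GRCm38.p6), with 29 windows of 250 bases upstream of a start site. Mmp9, Cebpe, Trem3 and Wfdc21 are not among them. The C/EBP family and PU.1 are transcription factors known to drive granulocyte genes. The letters TTNNGNAA, a C/EBP consensus, stood on either strand in 18 of the 29 windows, or 62.1%, and in 36.8% of all 32817 windows of the table. The letters AGGAAG, a core that PU.1 and other ETS factors bind, stood in 20, or 69.0%, against 29.5% of all. All 4 primary granule genes had AGGAAG and none of them had TTNNGNAA, while Ngp, S100a9 and Retnlg had TTNNGNAA and no AGGAAG. Neither pattern was particular to a role. AGGAAG alone also stood in Camp, Csf3r, Cxcr2, Hdc, Padi4 and Pglyrp1. TTNNGNAA alone also stood in Cd177, Clec4e, Fpr1, Fpr2 and Il1b, and Ltf, Lcn2 and S100a8 were among the genes with both. A match is a description of the letters and not of a bound site.

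Printed here are windows of genes from 3 of the 12 library orders seen among the 32 genes, 5′ to 3′ in the direction of transcription, with both kinds of match in capitals. Elane (chr10:79886062-79886311, plus strand) and Ctsg (chr14:56102575-56102824, minus strand) stand for the primary granule genes, Ltf (chr9:111019042-111019291, plus strand) for the secondary granules and S100a9 (chr3:90695722-90695971, minus strand) for calprotectin. Mmp8 (chr9:7558179-7558428, plus strand) stands for the genes that were highest in saline 2. These positions are GRCm38.p6, unlike those of the genes above.
Elane: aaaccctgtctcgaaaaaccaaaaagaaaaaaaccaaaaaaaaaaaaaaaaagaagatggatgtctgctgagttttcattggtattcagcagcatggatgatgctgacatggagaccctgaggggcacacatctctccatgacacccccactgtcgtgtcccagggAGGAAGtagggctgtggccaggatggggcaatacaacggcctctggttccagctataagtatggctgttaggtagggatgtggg
Ctsg: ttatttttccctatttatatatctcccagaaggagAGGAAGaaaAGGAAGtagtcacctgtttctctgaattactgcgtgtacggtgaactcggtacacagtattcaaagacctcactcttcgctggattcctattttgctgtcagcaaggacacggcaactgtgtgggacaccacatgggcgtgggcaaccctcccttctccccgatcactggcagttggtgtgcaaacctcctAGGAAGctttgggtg
Ltf: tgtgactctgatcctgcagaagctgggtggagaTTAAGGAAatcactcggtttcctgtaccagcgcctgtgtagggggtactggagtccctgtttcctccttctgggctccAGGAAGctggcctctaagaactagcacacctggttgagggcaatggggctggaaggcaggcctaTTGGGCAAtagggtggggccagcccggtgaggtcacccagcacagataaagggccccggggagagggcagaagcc
S100a9: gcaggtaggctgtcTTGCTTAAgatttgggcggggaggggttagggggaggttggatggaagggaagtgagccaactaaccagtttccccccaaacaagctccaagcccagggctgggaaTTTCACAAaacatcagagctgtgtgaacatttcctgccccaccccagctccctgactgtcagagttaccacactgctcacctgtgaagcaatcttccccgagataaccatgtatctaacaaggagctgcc
Mmp8: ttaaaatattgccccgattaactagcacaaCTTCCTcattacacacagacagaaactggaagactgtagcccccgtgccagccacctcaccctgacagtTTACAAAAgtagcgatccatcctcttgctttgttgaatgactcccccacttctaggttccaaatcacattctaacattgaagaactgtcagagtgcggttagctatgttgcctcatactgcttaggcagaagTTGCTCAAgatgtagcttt
In the Elane window the match lies 84 bases upstream of the start site, and in that of Ctsg the matches lie 215, 206 and 15 bases upstream. Ltf has C/EBP letters at 217 and 75 bases and AGGAAG at 139 bases upstream. In the S100a9 window the C/EBP letters lie at 236 and 130 bases, and in that of Mmp8 at 151 and 19 bases with AGGAAG letters at 220 bases. Mmp8 had another library order than Ltf and held both kinds of letters too, whereas Il1r2, which shared the order of Mmp8, had neither, and Padi4, also highest in saline 2, had AGGAAG without TTNNGNAA.

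Lists of other granulocyte genes were set beside these 32. Of 63 tested genes of a longer neutrophil list, none of them among the 32, the log2 fold change was above 0 in 43 and below 0 in 20, with a median of 0.18, and 0 passed the adjusted threshold. Of these 63, 47 were higher in saline 1 than in saline 2 and 39 higher in cmLumiOpto/PARPi 2 than in cmLumiOpto/PARPi 1, and 27 were both. Slfn4, an interferon-induced gene of myeloid cells, had 81 and 73 counts in the saline libraries, against 261 and 199 counts in the cmLumiOpto/PARPi libraries, a log2 fold change of 1.42 ± 0.27 (SE), with an edgeR adjusted p of 0.138. Slpi, an inhibitor of neutrophil elastase that epithelium also makes, and Tyrobp, a signalling adaptor of myeloid receptors, were higher in both cmLumiOpto/PARPi libraries as well, with log2 fold changes of 0.83 and 0.57. Ckap4, Csf2rb2 and Csf2rb were lower in both, with log2 fold changes of -0.67, -0.52 and -0.43. In all, 18 of the 63 were higher and 8 lower without overlap, where 27.4% and 27.8% of all tested genes were. Stfa2, Stfa3, Cstdc4 and Cstdc5, stefin A family genes for cysteine protease inhibitors that were picked after their values were seen, had their highest levels in cmLumiOpto/PARPi 2 and saline 1. Stfa3 had 32.0 and 6.81 CPM in the saline libraries, against 9.38 and 41.1 CPM in the cmLumiOpto/PARPi libraries, and Cstdc5 had 91.7 and 27.1 CPM and 21.1 and 123 CPM. Members of this family are near-identical, so reads could be split between them and the level of each is uncertain.

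The 6 subunit genes of the phagocyte NADPH oxidase, which makes superoxide in neutrophils and macrophages, all had log2 fold changes above 0, from 0.06 to 0.73. Of all 15167 tested genes 7881 were above 0. Cyba, the p22phox subunit, had 212 and 203 CPM in the saline libraries, against 345 and 342 CPM in the cmLumiOpto/PARPi libraries, a log2 fold change of 0.73 ± 0.13 (SE), with an edgeR adjusted p of 0.138. The groups overlapped in 4 of the 6 genes. In the other 2, Cyba and Ncf4, both cmLumiOpto/PARPi libraries were higher, as in 27.4% of all tested genes, and 0 of the 6 passed the adjusted threshold.

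Ligands that make or recruit granulocytes were tested in 18 of 19 cases, with 15 above 0 and 3 below and a median log2 fold change of 0.59. In 7 the cmLumiOpto/PARPi libraries were both higher and in 1 both lower, where 27.4% and 27.8% of all tested genes were, and 0 passed the adjusted threshold. Csf3, the gene of G-CSF, picked after its values were seen, had 25.6 and 28.2 CPM in the saline libraries, against 21.9 and 31.5 CPM in the cmLumiOpto/PARPi libraries, a log2 fold change of -0.01 ± 0.22 (SE). Cxcl5, a ligand of Cxcr2, had 2.70 and 3.54 CPM and 7.20 and 5.84 CPM, a log2 fold change of 1.06 ± 0.35 (SE), with an edgeR adjusted p of 0.184. Cxcl5 was lowest in saline 1, unlike Cxcr2, which was lowest in saline 2. The ligand gene at 0 counts in all 4 libraries was Il17a.

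Among 16 tested transcription factors of the granulocyte line the log2 fold change was above 0 in 10 and below 0 in 6, with a median of 0.09. Cebpd, a C/EBP factor of late granulocytes and of inflammation, had 25.4 and 16.6 CPM in the saline libraries, against 41.8 and 35.3 CPM in the cmLumiOpto/PARPi libraries, a log2 fold change of 0.87 ± 0.25 (SE), with an edgeR adjusted p of 0.158. Runx1, a factor of blood stem and precursor cells that other tissues also use, had 179 and 200 CPM and 75.1 and 104 CPM, a log2 fold change of -1.08 ± 0.19 (SE), with an edgeR adjusted p of 0.138. Gfi1, needed for granulocyte precursors, had 2 to 16 counts, too few for its size of change to be sure.

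Other blood cells did not all follow the neutrophil genes. All 8 erythroid genes were higher in saline 1 than in saline 2 and in cmLumiOpto/PARPi 2 than in cmLumiOpto/PARPi 1, as most neutrophil genes were. Their summed level was 1138 and 370 CPM in the saline libraries, against 1014 and 1269 CPM in the cmLumiOpto/PARPi libraries, so that saline 2 was the library with the least red cell RNA. The 10 T cell genes were all higher in saline 1 than in saline 2 but all lower in cmLumiOpto/PARPi 2 than in cmLumiOpto/PARPi 1, with sums of 64.6, 24.7, 132 and 40.2 CPM. The 7 pan-leukocyte genes were all higher in saline 1 too, and 1 of the 7 was higher in cmLumiOpto/PARPi 2 than in cmLumiOpto/PARPi 1. The part of blood content, or of other leukocytes, in the library order of the neutrophil genes was not tested.

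**Figure D5:**
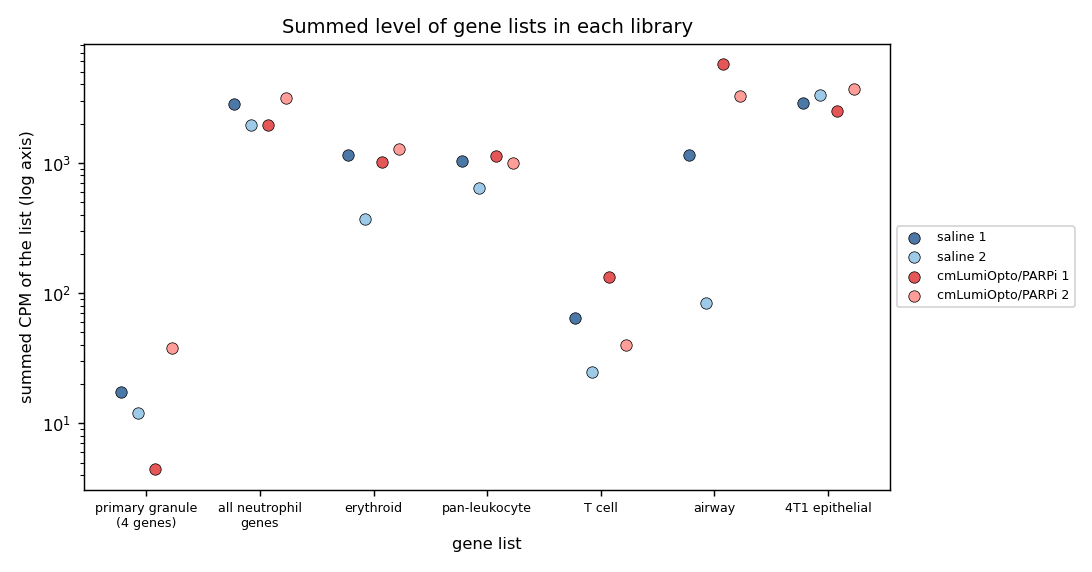
Summed CPM of 7 gene lists in each library on a log axis, with blue points for saline and red for cmLumiOpto/PARPi. The 4 primary granule genes run from 4.43 CPM in cmLumiOpto/PARPi 1 to 38.1 CPM in cmLumiOpto/PARPi 2, while the T cell list is highest in cmLumiOpto/PARPi 1 at 132 CPM and the airway list separates the groups.

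Relative to the leukocyte gene Ptprc (CD45), the summed level of the 32 neutrophil genes was 40.2 in saline 1 and 40.6 in saline 2. It was 16.7 in cmLumiOpto/PARPi 1 and 48.9 in cmLumiOpto/PARPi 2. On this scale the saline libraries were alike and cmLumiOpto/PARPi 1 stood apart. As a percentage of the summed pan-leukocyte genes, the neutrophil sum was 275 in saline 1 and 308 in saline 2. By that measure it was 171 in cmLumiOpto/PARPi 1 and 315 in cmLumiOpto/PARPi 2. The sum weighs genes by their level, and Lcn2 and Padi4 had other library orders than most of the set. In saline 1 and 2 Lcn2 gave 520 and 402 CPM and Padi4 374 and 550 CPM of sums of 2817 and 1964 CPM. With both genes taken out of the sums, the ratio to Ptprc is lower in saline 2 than in saline 1. The likeness of the saline libraries in the full sum therefore depends on these genes. The primary granule genes alone gave ratios of 0.248, 0.246, 0.0382 and 0.594 in the same order of libraries. Ptprc itself had 70.1 and 48.4 CPM in the saline libraries, against 116 and 64.1 CPM in the cmLumiOpto/PARPi libraries, so part of the low ratio in cmLumiOpto/PARPi 1 lay in its high Ptprc. The airway sums did not overlap between the groups, while the sums of the neutrophil genes did. Lcn2 and Ltf are also known from airway epithelium, and the part of such cells in their levels was not tested.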

How the data were processed

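The authors deposited a table of raw counts per gene for the 4 libraries, with gene positions and gene lengths. Reads were aligned with HISAT2 by the authors. The methods of the study name GRCm38, whereas the submitters' processing notes name mm39. Of the 52073 genes found by identifier in a GRCm38 annotation, 2.76% stood at the same position, so table coordinates are given as mm39. The counting tool and strand setting are not given in the sources used here. Counts were scaled by TMM and filtered with filterByExpr, and groups were compared with edgeR 4.0.16 (quasi-likelihood test, Benjamini-Hochberg adjustment over all 15167 tested genes, threshold 0.05) in R 4.3.3. DESeq2 1.42.0 and other settings were alternatives. Fits were tested on simulated data. Counting intervals are exact 95% intervals of a ratio of counts. With 15263375 to 16755228 counts per library, 3 counts were 0.173 to 0.204 CPM. The members and lists were chosen with earlier results of these data known. All members were to be named, and from each other list up to 3 genes per direction with the smallest p among those without overlap, any gene of a list of at most 8, and Ptprc as the leukocyte reference, with exceptions stated in the text. Sequences are from RefSeq, matched by symbol.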

Additional observations from a re-analysis of the deposited data

How the results depend on the processing

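The group comparison called 0 of all tested genes, and 0 with RLE, upper quartile or total count scaling, but 1011 with DESeq2, 865 with the likelihood ratio test, 2000 without the filter on low counts and 1822 with the replicate number as a block. Leaving out 1 library gave 0 to 31, with 31 without saline replicate 1. Of the neutrophil genes 1 was called with DESeq2, 3 without the filter and 3 with the replicate block. The shared numbers do not pair the libraries by any label, and there are 2 pairs. The log2 difference of replicate 1 from replicate 2 in saline was ranked against that in cmLumiOpto/PARPi. Spearman's rho was 0.30 over all tested genes and -0.04 over the neutrophil genes. The latter leaves out the direction that the neutrophil genes share, with 25 of 31 higher in saline 1 and 27 higher in cmLumiOpto/PARPi 2. With the block Mmp8, Il1b and Il1r2 were the neutrophil genes called, and the call of no other neutrophil gene changed. With it the primary granule genes had smaller values, Mpo from 0.78 to 0.08, Elane from 0.64 to 0.15 and Ctsg from 1.16 to 0.38 on the log2 scale, and Prtn3 turned from 0.25 to -0.09. A loess correction for length and mean moved the median of the neutrophil genes from 0.37 to 0.13, S100a8 to 0.10, Ly6g to 0.08 and Padi4 to -0.15, and turned Fpr2 to -0.20. The median log2 fold change of the neutrophil genes ranged from -0.45 to 0.69 when 1 library was left out. The sign changed with a library left out in 21 of the 31 genes and not in 10. The 21 ranged, on the log2 scale, as Camp (-0.47 to 1.10), Cd177 (-1.51 to 0.34), Cebpe (-0.66 to 1.49), Ctsg (-2.65 to 2.11), Cxcr2 (-0.06 to 0.69), Elane (-1.89 to 1.51), Fpr1 (-0.53 to 0.11), Fpr2 (-0.37 to 0.58), Ifitm6 (-1.36 to 0.50), Lcn2 (-0.18 to 0.19), Ltf (-0.58 to 1.72), Ly6g (-0.25 to 1.68), Mmp9 (-0.54 to 0.63), Mpo (-2.05 to 1.68), Ngp (-1.29 to 0.39), Prtn3 (-1.51 to 1.01), Retnlg (-0.45 to 1.02), S100a8 (-0.29 to 1.22), S100a9 (-0.03 to 1.28), Trem1 (-1.07 to 0.01) and Wfdc21 (-0.20 to 0.75). The counts of genes without overlap under other scalings, a setting added after seeing the data, were 4 or 5 higher and 2 lower. The cause of these changes was not tested.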
